A study of Saccharomyces cerevisiae with 28 samples.

Results

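Of the 40890 guide RNAs (gRNAs) of a yeast CRISPR library, 109 (0.267%) were read repeatedly under gene repression and never under gene activation. A guide was taken when it had at least 20 reads in each of the 4 low fluorescence libraries of the main repression screens and 0 reads in all 20 activation libraries, 16 of the main screens and 4 of the early screen. The guides were thus chosen by these read counts, so the counts in those 24 libraries, and any contrast that uses them, are a description. The 109 guides are 1.18% of the 9200 guides that reached 20 reads in each repression low library. They were set beside 4362 comparison guides, which met the same minimum under repression and had reads in 10 or more of the 20 activation libraries. The other 4729 guides with that minimum had reads in 1 to 9 activation libraries.

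All libraries came from Ethanol Red, a diploid industrial bioethanol strain of Saccharomyces cerevisiae, which carried an α-amylase gene of Aspergillus niger integrated at the HO locus. Cells held a plasmid with a guide induced by anhydrotetracycline and a constitutively expressed dCas9 fusion, were kept under geneticin, and were encapsulated in droplets with a substrate that fluoresces when amylase is secreted. The repression screens (dCas9-Mxi1) comprised 2 rounds with 2 replicates each, giving 4 high and 4 low fluorescence libraries, and the activation screens (dCas9-VPR) comprised 2 high and 2 low libraries of an early screen and 8 high and 8 low libraries of the main screens. High libraries are cells of the most fluorescent droplets, low libraries are cells of the remaining droplets, and all were taken after outgrowth without the inducer. No plasmid pool taken before transformation and no library of cells without an induced guide was analysed here, so loss during cloning, loss during transformation and loss in cells cannot be told apart. The labels do not say that replicates came from separate cultures, so the spread between them may be technical.

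In CRISPR repression and activation, a Cas9 made unable to cut is carried to a promoter by the guide, and the domain fused to it lowers or raises transcription there. The last base of a guide lies beside the PAM, the short motif in the target that Cas9 needs for binding, and its first base is where the guide transcript pairs farthest from the PAM. In a pooled screen a guide is measured by counting its own sequence, so it must first be present in the plasmid pool and in the cells before any effect on secretion can be read. A guide whose cells secrete more amylase takes a larger share of the high than of the low fraction.

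The guides below carry the results and are named by their first 6 bases. The first and the last base are in capitals, because these were the positions at which the 109 guides differed most in composition from the comparison guides. The first group holds 4 of the most abundant guides with no read in any high library or with reads concentrated in 1 of them.
GAACGT guide: GaacgtgaaacttattgtcA
GATGTC guide: GatgtcaatacccataacgA
GTTTAC guide: GtttaccgtcaacctggtgA
ATGTAC guide: AtgtacggttgttccgtggG
The next group holds the 5 guides that ranked first for a lower abundance in the high fraction in the fit described further on.
CTATGG guide: CtatggtcaatggctgtacG
CCAGCC guide: CcagccttgagccaattcaA
GAGGAT guide: GaggattgacagtaactggG
GAAAAC guide: GaaaactaagccacttcacG
TTTTTA guide: TttttaagtttggatcatcC
A further group shows the range of base composition, with the guides of the lowest and the highest share of G and C.
TTTATT guide: TttattttaatgttagattA
CATATA guide: CatataatgaatatataaaT
TATTTA guide: TatttatatttacatgattG
TGCGGC guide: TgcggcgtttgcttaaccgG
TCCGCA guide: TccgcatccagctttctggG
GCAGTA guide: GcagtagggaagacccaggA
For contrast, these are the most abundant comparison guides, which were read in all 20 activation libraries.
GTGACG guide: GtgacgcgtcacttcaaacG
GCATTC guide: GcattcgctctagtgttcgG
GGAATA guide: GgaataatcatctctgatgG

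The 109 guides were of low abundance where they were found. CPM denotes the reads of a guide per 1000000 reads of its library. The mean over the 4 repression low libraries ran from 9.86 to 60.3 CPM with a median of 22.9 CPM in the 109 guides, and from 13.99 to 2252 CPM with a median of 102.8 CPM in the comparison guides. When the 9200 guides were ordered by this mean and divided into 4 sets of 2300, 92 of the 109 fell in the lowest set, 16 in the next, 1 in the third and 0 in the highest. The lowest of the 4 read counts of a guide ran from 20 to 76 with a median of 28, and 41 of the 109 had a lowest count between 20 and 24. Thus a large part of the group lay close to the minimum that defines it.

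Guides just inside and just outside the limits were separated by few reads. Just inside, the AGGCCT guide had 51, 36, 20 and 20 reads in the repression low libraries, given here and below in the order round 1 replicate 1, round 1 replicate 2, round 2 replicate 1 and round 2 replicate 2. The TATAAG guide, also just inside, had 87, 22, 20 and 65 reads. Just outside, the AACAGG guide missed the minimum with 64, 40, 47 and 19 reads, and the TATTAT guide missed it with 100, 85, 19 and 28 reads. The TACCCC guide, with 24, 48, 46 and 62 reads, and the ATATGA guide, with 78, 53, 40 and 43 reads, met the minimum but had 1 activation read each. In all, 174 of the 9200 guides had a single activation read and 328 had 2 or 3, and 53 of the 815 guides whose lowest repression low count was 15 to 19 had no activation read (6.50%).

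The depth of the activation libraries set the limit of what absence means. They held 50433 to 2464879 reads each and 25484103 in all, so that a count of 0 over all of them allows up to 0.118 CPM (3 reads of the total). Because the amplicons carry no molecular identifiers, several reads can stem from 1 molecule, so this limit and the intervals below cover counting error only. In the repression low libraries every one of the 109 guides lay far above that level, as the rule requires. Absence as such was common, because 19279 of the 40890 guides (47.1%) had no activation read, and 3826 of these (19.8%) had at least 1 repression read. The 109 guides are 0.565% of the 19279. Under repression, library totals ran from 1842307 to 3346567 in the high fraction and from 1603093 to 3359719 in the low fraction.

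The low counts of single guides varied widely between libraries. The most abundant of the 109, the GAACGT guide, had 74, 140, 121 and 234 reads in the low libraries, a mean of 60.3 ± 28.4 CPM (SD, n = 4). The GATGTC guide had 240, 155, 76 and 128 reads, or 57.3 ± 11.9 CPM. Other guides differed more between rounds. The TATTTA guide had 221 and 138 reads in round 1 and 27 and 24 reads in round 2, whereas the GTTTAC guide had 49 and 64 reads in round 1 and 129 and 195 reads in round 2. The coefficient of variation over the 4 low libraries ran from 10.2% to 112% with a median of 47.1% in the 109 guides, and from 2.51% to 128% with a median of 33.4% in the more abundant comparison guides. Both round 2 libraries exceeded both round 1 libraries in CPM for 28 of the 109 guides (25.7%), and the opposite held for 16 (14.7%). Among comparison guides the corresponding shares were 15.9% and 16.3%.

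The high fluorescence libraries of the repression screens were not used to choose the guides, and there the 109 guides were largely missing. They took 0.0505%, 0.0674%, 0.0592% and 0.00770% of the reads of the 4 high libraries, against 0.245%, 0.261%, 0.344% and 0.241% of the reads of the 4 low libraries. The groups did not overlap. The mean share was 0.0462 ± 0.0266% in high libraries and 0.273 ± 0.0484% in low libraries (SD, n = 4 each), 5.91-fold lower in the high fraction. A high and a low library of the same round and replicate number are called a sort here, although the labels do not say that they were sorted together. Within these sorts the share was 4.85-, 3.87-, 5.82- and 31.4-fold lower in the high than in the low library. Comparison guides took 65.5 ± 1.38% of the high and 62.3 ± 0.744% of the low reads (SD, n = 4 each). Since the low reads entered the rule, these ratios are a description, and the comparison guides serve as the yardstick because they met the same minimum in the same low libraries.

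The difference was also seen in how many guides were detected at all. Of the 109 guides, 16, 21, 19 and 8 had a read in the 4 high libraries, against 109 in each low library by the rule. No read in any high library was found for 59 guides (54.1%, 95% Wilson interval 44.8 to 63.2%), 39 were detected in 1 high library, 9 in 2, 1 in 3 and 1 in all 4. Among comparison guides, 23 of 4362 (0.527%) had no high read. Abundance differed between these groups, and so the 927 comparison guides within the range of the 109 guides' mean CPM were taken as well. Of these, 20 (2.16%) had no high read, although their median of 45.9 CPM was still above that of the 109 guides.

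Narrower bands of abundance gave the same order. Below 20 CPM in the repression low libraries, 28 of 48 of the 109 guides had no high read (58.3%), against 32.3% of 189 guides with reads in 1 to 3 activation libraries, 19.7% of 147 guides with reads in 4 to 9, and 0 of 16 comparison guides. The 0 of 16 has a Wilson interval reaching 19.4%. From 20 to 30 CPM it was 15 of 30, against 31.3% of 380, 11.9% of 571 and 2.11% of 95 guides in the same order. From 30 to 61 CPM it was 16 of 31 (51.6%, 34.8 to 68.0%), against 18.2% of 506, 6.72% of 1906 and 2.15% of 836 (1.37 to 3.38%). In each band the share was thus highest in the guides without an activation read and lowest in the comparison guides. Abundance was not fully matched in the widest band. From 30 to 61 CPM the median was 37.1 CPM in the 109 guides, and 38.1, 43.5 and 48.2 CPM in the other groups in the same order. Summed over the range of the 109 guides, the ratio of the high to the low share was 0.169 in those guides and 0.458 in guides with reads in 1 to 3 activation libraries. It was 1.04 in guides with 4 to 9 and 1.53 in comparison guides. The range was set on the same low counts that form the ratio, and the ratio over all comparison guides was 1.05. These ratios are therefore a description, and the value of 1.53 depends on that cut.

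Guides that were present in a high library were mostly present in only 1. Of the 50 guides with any high read, 12 never exceeded 3 reads in a high library, while 26 reached 50 reads or more in at least 1, and 25 of these 26 did so in exactly 1. Counts of 50 or more held 4791 of the 5134 high reads of the 109 guides (93.3%). The GCAATA guide had 668, 1, 0 and 0 reads in the high libraries, against 39, 85, 62 and 69 reads in the low libraries, and its 668 reads were 39.6% of all reads of the 109 guides in that library. The GAACGT guide had 1, 1, 1 and 199 high reads, and these 199 were 96.1% of the reads of the 109 guides in the high library of round 2 replicate 2. The TAGATC guide had 0, 0, 278 and 2 reads in the high libraries, against 113, 29, 82 and 26 in the low libraries. The GCTCAT guide had 0, 0, 203 and 0 high reads and the ATGTAC guide 0, 252, 0 and 0. These guides were high in a single library and at or near 0 in the other high libraries, so their means over the high fraction rest on 1 library each. The ATGTAC guide, for example, averaged 19.8 ± 39.5 CPM in high libraries and 43.1 ± 21.5 CPM in low libraries (SD, n = 4 each).

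The high and the low fraction were compared across all 13403 guides that passed the filter on low counts, using edgeR's likelihood ratio test after RLE normalization and log2 fold changes of the high over the low fraction. Because the low counts also chose the 109 guides, the calls and fold changes of these guides are a description of how the fit sorted them, and no p-value is given for any of them. A guide counted as enriched or depleted beyond a log2 fold change of 3 in size at a Benjamini-Hochberg adjusted p below 0.05. All 109 guides passed the filter through their low counts. Of the 109, 0 were enriched, against 5.37% of all guides tested, and 71 (65.1%) were depleted, against 13.5% of all guides tested. No guide among the 109 had a log2 fold change over 3 together with an unadjusted p under 0.05, and edgeR's quasi-likelihood test and DESeq2 also called 0 enriched. The guides tested as a whole were not selected on their low counts, so nothing is read from these shares. The median log2 fold change was -7.85 in the 109 guides and 0.01 over all guides tested. In the comparison guides, which met the same minimum in the low libraries, 372 of 4362 (8.53%) were enriched and 96 (2.20%) depleted, and of the 927 comparison guides in the same range of abundance 60 (6.47%) were depleted. The share of depleted guides was 36.8% of 1070 guides with reads in 1 to 3 activation libraries and 16.4% of 2585 guides with reads in 4 to 9, both within that range of abundance.

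In 78 of the 109 guides (71.6%) every high library lay below every low library in CPM, against 20.3% of all guides tested, 9.72% of the comparison guides and 12.6% of the comparison guides in the same range. One library weighed on the fold changes. The high library of round 2 replicate 2 had an RLE factor of 0.0349, while the factors of the other 7 libraries ran from 1.39 to 1.82, so that each read in it counts far more. With that sort left out, 73 of the 109 guides were depleted and 0 enriched, but only 5 of all guides tested were enriched, against 720 with it. With TMM normalization, enriched and depleted guides numbered 105 and 1984 over all guides tested, against 720 and 1812 with RLE.

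The guides called depleted were the 59 without a high read and 12 read in 1 high library. The GATGTC guide had 0 reads in all 4 high libraries, against 240, 155, 76 and 128 reads in the low libraries, and was at least 218-fold lower in the high fraction, taking 3 reads over the 4 high libraries as the limit for a count of 0. Its fitted log2 fold change was -9.94. The GTTTAC guide had 0 high reads, against 49, 64, 129 and 195 low reads, and was at least 159-fold lower. For the TGCGGC guide, with 0 high reads against 164, 40, 65 and 177 low reads, the bound was at least 163-fold. Over the 59 guides these bounds ran from 35.0 to 218. These bounds and those below cover counting error only. They leave out the spread between high libraries, where the reads of a guide were often concentrated in 1 library. They also leave out the number of sorted cells, which is not known for any guide. High libraries came from a small gated share of the droplets, followed by outgrowth. The bounds therefore hold for reads and are no bounds for cells. The low reads entered the rule, so the bounds are a description. Fitted fold changes of guides at 0 depend on the prior count and are no bounds. With guides at 0 set to their bound, the median over the 109 guides was 61.3-fold lower in the high fraction.

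The 5 guides that ranked first for a lower abundance in the fit included none of the 10 most abundant. The CTATGG guide had 0 high reads, against 80, 51, 43 and 57 reads in the low libraries, a mean of 23.1 ± 2.81 CPM (SD, n = 4), and was at least 84.2-fold lower in the high fraction. The CCAGCC guide had 0 high reads, against 63, 38, 37 and 60 low reads, at least 72.2-fold lower. The GAGGAT guide, which lies upstream of CRM1, had 0 high reads, against 83, 70, 25 and 64 low reads, at least 88.3-fold lower, with a fitted log2 fold change of -8.63. The GAAAAC guide had 0 high reads, against 50, 39, 32 and 66 low reads, and the TTTTTA guide had 0 high reads, against 76, 79, 35 and 40 low reads.

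The other 38 guides were not called, with log2 fold changes from -5.86 to 3.90. The value of 3.90 belonged to the GAACGT guide. By mean CPM this guide was lower in the high fraction, at 18.8 ± 36.8 CPM against 60.3 ± 28.4 CPM in the low fraction (SD, n = 4 each), while its fitted value rests on the 199 reads in the library with the small RLE factor. Without that sort its log2 fold change was -6.70, and with library size alone as scaling it was -1.73. Next on the positive side were the GCAATA guide, the TAGATC guide, the GCTCAT guide and the CATTGA guide, with log2 fold changes between 0.61 and 1.15. For each of these 4 the value was negative once the sort holding most of its high reads was left out. In total, 11 of the 109 guides had a positive log2 fold change, and 6 had a higher summed CPM in the high than in the low fraction.

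Sequence features were not part of the rule. Guides of a library are not replicates of a condition, so the shares are given with Wilson intervals and without a test. The share of G and C was lower in the 109 guides, at 37.2 ± 11.2% with a median of 35% and a range of 10 to 60%, than in the comparison guides, at 40.6 ± 13.4% with a median of 40% and a range of 5 to 85% (SD over guides). The 927 comparison guides in the same range of abundance lay between them at 38.9%, and the library as a whole averaged 38.5%. These 927 are called of similar abundance below, although their median CPM was higher than that of the 109 guides. Guides of more than 45% G and C made up 21.1% of the 109 (14.5 to 29.7%), 33.3% of the comparison guides (31.9 to 34.7%) and 21.1% of the library. By this measure the 109 guides resembled the library, and the comparison guides stood above it. The extremes among the 109 behaved differently from each other. The TTTATT guide, at 10% G and C, had 0 high reads against 90, 61, 66 and 88 low reads, while the CATATA guide, also at 10%, had 0, 0, 90 and 0 high reads against 21, 35, 33 and 22 low reads. At 60%, the GCAGTA guide had 0 high reads against 36, 41, 79 and 104 low reads, and the TCCGCA guide had 52, 1, 0 and 1 high reads against 199, 120, 47 and 30 low reads.

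The end bases differed most. An A beside the PAM, as the last of the 20 bases, was found in 51 of the 109 guides (46.8%, 37.7 to 56.1%), against 7.22% of the comparison guides (6.49 to 8.03%), 11.4% of the comparison guides of similar abundance (9.54 to 13.6%) and 33.5% of the library. Guides ending in A were 268 of 1070 for reads in 1 to 3 activation libraries and 473 of 2585 (18.3%) for reads in 4 to 9, within the same range of abundance. A last G was found in 27.5% of the 109 guides, 52.8% of the comparison guides and 36.7% of the library. At the first base, G was found in 28 of the 109 guides (25.7%, 18.4 to 34.6%), against 55.1% of the comparison guides (53.6 to 56.6%), 45.1% of those of similar abundance and 20.3% of the library. A first T was found in 21.1% of the 109 guides, 4.70% of the comparison guides and 30.2% of the library. A guide that starts with T or ends in A was thus rare in the comparison guides (11.6%, 10.7 to 12.6%). It made up 65.1% of the 109 (55.8 to 73.4%) and 53.8% of the library. By this measure the 109 guides lay closer to the library than the comparison guides did. Among the sequences printed above, the GATGTC guide and the CCAGCC guide end in A, and the 3 comparison guides all start and end with G. At the 18 inner positions the largest difference from the comparison guides was 11.2 percentage points, for T at position 10 (17.4% of the 109 guides, 28.6% of the comparison guides).

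The end bases followed detection across the whole library. Of the 15453 guides with no read in any of the 28 libraries, 48.8% ended in A and 7.73% started with G. The 3717 other guides with repression reads only ended in A in 35.4% and started with G in 13.3%, and the 1770 guides with activation reads only ended in A in 37.2% and started with G in 14.7%. Guides with reads under both numbered 19841, of which 20.8% ended in A and 31.9% started with G. The 109 guides therefore resembled the guides never read in their last base, but not in their first, where a G was more frequent. Within bands of abundance the last base kept its contrast, with an A in 54.2% of the 109 guides and 12.5% of the comparison guides below 20 CPM, 46.7% and 9.47% from 20 to 30 CPM, and 35.5% and 11.4% from 30 to 61 CPM. Inside the group, guides with and without a last A had close shares without a high read. No high read was found for 28 of 51 guides that end in A (54.9%) and for 31 of 58 that do not (53.4%).

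Runs of 4 or more T, which can end transcription by RNA polymerase III, were less frequent in the 109 guides than elsewhere. They were found in 5 guides (4.59%, 1.98 to 10.3%), against 13.3% of the comparison guides (12.4 to 14.4%), 13.5% of those of similar abundance and 11.3% of the library. Runs of 5 T were found in 2.75% of the 109 guides and 5.20% of the comparison guides. The difference for 4 T was smaller under other forms of the rule, -2.46 percentage points with a minimum of 10 reads in place of -8.76. Runs of 4 A were found in 22.9% of the 109 guides and 18.7% of the comparison guides. Recognition sites of the enzymes used in cloning were searched on both strands. The BspQI site (GCTCTTC) occurred in 1 of the 109 guides, 1 of the 4362 comparison guides and 0.235% of the library, and the sites of AscI (GGCGCGCC) and NotI (GCGGCCGC) in none of the 109. The guide with the BspQI site, the GAGGTT guide, was chosen for mention after its values were seen, and had 0, 106, 0 and 0 high reads against 57, 30, 37 and 67 low reads.

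Targets were looked up for few of the 109 guides. The study's guide lists were at hand only in part, with 1999 rows of the list of all guides, and the remaining rows were not analysed here. The rows used here pair 2278 guides with a gene or transcript and come from lists of the activation screens. None of the 109 had a paired feature in them. By the rule these guides had no activation read, so lists from those screens would not hold them. Their absence from the lists therefore says nothing about their targets. Of the comparison guides, 1639 had one, with 1184 paired with protein-coding genes, 209 with cryptic unstable transcripts (CUTs), 199 with stable unannotated transcripts (SUTs) and 12 with snoRNAs. With the rows used here, feature classes were therefore not compared and the 109 guides were not counted by pathway. The most abundant comparison guides show what a paired guide looks like. The GTGACG guide, paired with SWI4, which encodes a DNA-binding subunit of a regulator of G1/S transcription, had 68672 activation reads, and the GCATTC guide, paired with VAB2, which encodes a subunit of the yeast BLOC-1 complex, had 46662.

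Within the 1999 rows used here, a position in the genome was given for 2 of the 109 guides, in the coordinates of the list, whose convention for the position is not stated. The GAGGAT guide lies on chromosome 7 at position 932040 on the minus strand, with AGG as PAM, 501 bases upstream of the start codon of CRM1 (YGR218W), which encodes the main receptor for nuclear export of proteins. It had no high read, as given above. The AAACTG guide lies on chromosome 10 at position 722176 on the minus strand, with TGG as PAM, 639 bases upstream of the start codon of PGU1 (YJR153W), which encodes an endopolygalacturonase. It had 0, 0, 0 and 1 high reads, against 50, 46, 98 and 42 low reads, a ratio of low to high CPM of 258 with an exact counting interval from 45.9 to 10241, and its fitted log2 value was -5.86.

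Guides that overlap the 109 in sequence were looked at next, since a long shared run can place them at nearly the same site. A run of 14 or more bases on either strand was shared with another guide by 28 of the 109 guides, and these had 35 such neighbours, none of them among the 109. The bases beside the run were not required to match, so some of these neighbours belong to other sites. The CCCACT guide and its neighbour, for example, differ on both sides of their shared run. Of the 35, 17 had activation reads (48.6%, 33.0 to 64.4%), against 59.7% of the 1001 neighbours of comparison guides and 52.9% of all guides. With 12 shared bases the shares were 58.2% for neighbours of the 109 guides and 58.2% for neighbours of comparison guides. Reads in 10 or more activation libraries were found for 2 of the 35 neighbours (5.71%), against 14.2% of the neighbours of comparison guides and 11.7% of all guides. The share of neighbours with any activation read was thus near that of all guides. With 16 shared bases, 2 of 17 neighbours (11.8%) had reads in 10 or more activation libraries, against 17.9% of the neighbours of comparison guides. The share read broadly therefore rests on 2 guides. Close pairs are printed below with the bases outside the shared run in capitals, each guide of the 109 above its neighbour.
GCAGTA guide: gcagtagggaagacccaggA
TGCAGT neighbour: Tgcagtagggaagacccagg
AATTTA guide: Aatttacccaatgcttccaa
ATTTAC neighbour: atttacccaatgcttccaaG
AGGGGT guide: AGgggtaaaacatcatcttg
GGGTAA neighbour: gggtaaaacatcatcttgCG
AGAGTT guide: agagttaacattaggaaaCG
AAAGAG neighbour: AAagagttaacattaggaaa

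The neighbours of a pair had different reads. The GCAGTA guide had 0, 0, 0 and 0 high reads against 36, 41, 79 and 104 low reads, while its neighbour, displaced by 1 base, had 2, 767, 1156 and 2 high reads against 266, 114, 67 and 49 low reads, and 586 reads in 10 activation libraries. The AATTTA guide had 0 high reads and 55, 102, 112 and 27 low reads, while its neighbour, also displaced by 1 base, had no read in any main repression library and 275 reads in 4 activation libraries. That pair was thus split between the repression and the activation libraries. The AGGGGT guide had 0 high reads against 81, 25, 33 and 24 low reads. Its neighbour, paired with the stable unannotated transcript SUT735, had 254, 176, 126 and 1 high reads against 549, 572, 327 and 563 low reads, and 1749 reads in 13 activation libraries. The AGAGTT guide had 0, 0, 1 and 0 high reads against 90, 54, 92 and 27 low reads. Its neighbour, placed at chromosome 15 position 939470, 121 bases upstream of the start codon of SCD5, a gene of clathrin-dependent endocytosis, had 105, 31, 2 and 0 high reads against 206, 106, 161 and 276 low reads. These pairs were chosen for mention after their values were seen, and whether the alignment of reads to guides differing by such a shift moved reads between neighbours was not tested.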

How the data were processed

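The variable guide region was amplified from plasmids extracted from sorted cells and sequenced, in 28 libraries. The authors demultiplexed the reads, aligned them to padded guide sequences with BWA (the processing notes also name sacCer3) and deposited the counts of reads per guide in 2 tables, without normalization and with replicates kept apart. Tool versions are not given in the sources used here. Value columns that were not used numbered 0. The study's lists also hold its own fold changes, which were not used.

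From the deposited counts, guides were selected with Python 3.11.15 and pandas 2.3.3. For the comparison of the high with the low repression fraction, edgeR 4.0.16 (R 4.3.3) was run on the whole table (filterByExpr, RLE, glmFit and glmLRT, prior count of 0.125). The fit was also run on simulated data with 200 changed guides, at the common dispersion of these data (2.43) and at a lower one. A minimum share of recovered guides was required only at the lower dispersion, so that check does not cover recovery at the spread of these data. Alternatives were TMM, library size only, glmQLFTest, DESeq2 1.42.0, no filter, a prior count of 2, a replicate block, leaving out each sort, and other limits of the rule. Same-numbered high and low libraries did not deviate together (correlations from -0.003 to 0.03).

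The guides and all lists were chosen with earlier results of these data known. Named guides are the 10 most abundant, the 5 with the smallest p in each direction, the 3 lowest and 3 highest in G and C, 2 on each side of each limit, and 3 comparison guides. Wilson intervals are at the 95% level. The end bases, the bands of abundance and the overlapping guides were looked at after seeing the data. Symbols and start codons are those of the RefSeq gene table (R64).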

Additional observations from a re-analysis of the deposited data

Results flagged for a closer look

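Among the named guides, 43 groups of 4 repression libraries with any read were screened for a single library far from the others in CPM, and chance flags about 1 in 20 such groups. The screen picked out 15 groups, all of them in the high fraction and all for a highest library, and 0 in the low fraction. Groups in which the other high libraries hold 0 reads meet this condition whenever 1 library has a read, so the number is not comparable with chance.

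In the high library of round 1 replicate 1, the GCAATA guide had 668 reads, the GGAAGA guide 146, the TCCGCA guide 52, the ATTATA guide 26 and the TATTTA guide 1. Of the 2 guides that begin with TAAAAT, the guide TaaaatttagtggttcattG had 1 read there. In round 1 replicate 2, the ATGTAC guide had 252 reads, the AAACGC guide 203, the AGGCCT guide 138 and the GCTGAG guide 5. In round 2 replicate 1, the TAGATC guide had 278 reads, the GCTCAT guide 203, the CATTGA guide 117 and the CATATA guide 90. In round 2 replicate 2, the GAACGT guide had 199 reads. The single libraries were spread over all 4 high libraries, and the cause was not tested.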

How the results depend on the processing

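The size of the group depended on its limits. In place of 109 guides, a minimum of 10 reads gave 239, a minimum of 50 reads gave 9 and a tolerance of 3 activation reads gave 611. Without 1 repression low library it held 159 to 261.

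The count of depleted guides among the 109 stayed between 62 and 83 and the count enriched stayed at 0 under all alternatives run. Of the 71 depleted, 62 were called under every one. All these fits reuse the low counts that chose the guides, so their agreement is a description. Leaving out 1 sort gave 73 to 83 depleted. The replicate block gave 62 depleted and 0 enriched. Over all guides tested, the 720 enriched became 105 with TMM, 14 with library size only, 3 with glmQLFTest, 107 with DESeq2, 1125 without a filter, 0 with the replicate block, and 5 to 574 with 1 sort left out, and the 1812 depleted became 4607 without a filter and 2531 to 3263 with 1 sort left out. In comparison guides, the 372 enriched became 33, 3, 0 and 69 under the first 4 of these and 0 with the block, and 2 to 243 with 1 sort left out, where the 96 depleted became 119 to 217.

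The ratio of the high to the low share was 0.0696 with a minimum of 50 reads, in place of 0.169, and 0.141 to 0.208 without 1 sort. Taking the 109 guides minus the comparison guides, the share of G and C differed by -3.36 percentage points, by -5.42 with comparison guides in 15 or more activation libraries and by -3.79 to -2.38 without 1 library. The share with a run of 4 T differed by -8.76 points, by -2.46 and -2.26 with a minimum of 10 or 50 reads, by -1.72 with 3 activation reads allowed, by -2.45 for 5 T and by -7.03 to -3.45 without 1 library. A last A differed by 39.6 points, by 27.4 with a minimum of 10 reads, 22.9 with 3 activation reads allowed and 28.7 to 36.1 without 1 library. A first G differed by -29.4 points, by -12.0 with a minimum of 50 reads, -39.6 with comparison guides in 15 or more activation libraries, -19.4 with those of similar abundance and -35.2 to -31.0 without 1 library. Neighbours with reads in 10 or more activation libraries were 5.71% (14.2% for comparison guides), in place of 48.6% with any (59.7% for comparison guides). The end bases, library size only, the range of abundance and the 12 or 16 shared bases were added after seeing the data.

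Single named guides that changed sign were not called in the main comparison. With the replicate block, log2 fold changes were -5.26 (GAACGT guide), -5.32 (GCAATA guide), -2.46 (TAGATC guide), -4.95 (GCTCAT guide), -2.92 (CATTGA guide), -4.88 (CATATA guide) and -5.22 (AGGCCT guide). With 1 sort left out, values ran from -6.70 to 4.41 (GAACGT guide), -6.75 to 1.84 (GCAATA guide), -1.33 to 1.65 (TAGATC guide), -7.77 to 1.32 (GCTCAT guide), -5.19 to 1.11 (CATTGA guide), -7.44 to 0.78 (CATATA guide), -7.57 to 0.92 (AGGCCT guide) and -9.33 to 0.091 (ATGTAC guide). With TMM they were -0.023 (CATTGA guide), -0.12 (CATATA guide) and -0.21 (AGGCCT guide), and with library size only -1.73 (GAACGT guide), -0.051 (CATATA guide) and -0.24 (AGGCCT guide). Matches in promoter windows and guides of the same promoter were not run, because no promoter sequences were used here. Depth limits absence to 0.118 CPM under activation.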
